A study of Homo sapiens with 24 samples.

Results

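Transcript levels of 9 core genes of the Notch pathway were followed in MCF-10A cells with and without an inducible MYC protein: the receptors NOTCH1, NOTCH2 and NOTCH3, the ligands JAG1, JAG2 and DLL1, and the target genes HES1, HEY1 and NRARP. They were taken from the deposited gene table by matching the Ensembl identifier of each row, without its version, to these symbols. All 9 were found among the 60668 rows of the table, each in 1 row, and all 9 passed the filter on low counts that left 22158 genes for testing. MCF-10A is an established, non-tumorigenic line of human mammary epithelial cells. MCF-10A MYC-ER is the same line carrying a MYC protein fused to an oestrogen receptor domain (ER), and the drug 4-hydroxytamoxifen (4-OHT) switches the fusion on. The labels do not say which promoter drives the fusion or whether the MYC-ER line is 1 clone.

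Both lines were grown as 3D cultures on Matrigel and received 1 µM 4-OHT for 8, 24 or 48 h before collection, or none (0 h), and all cultures were collected at the same time. This gives 8 groups of 3 libraries each: MYC-ER at 0, 8, 24 and 48 h and parental MCF-10A, which lacks the fusion, at 0, 8, 24 and 48 h. The parental line serves as the comparison for 4-OHT in the absence of MYC-ER. The labels say that wells were seeded in triplicate and not that cultures were set up independently, so p-values measure the spread between these libraries, which may be technical. In bulk RNA, fewer cells of a type and less RNA per cell cannot be told apart.

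Notch receptors sit in the cell membrane and are bound by Jagged (JAG) or Delta-like (DLL) ligands on neighbouring cells. Binding leads to cleavage by an ADAM protease and then by gamma-secretase, and the freed intracellular domain enters the nucleus, where it joins the DNA-binding protein RBPJ and a Mastermind (MAML) coactivator to switch on target genes. HES1 and HEY1 encode transcriptional repressors of the basic helix-loop-helix type, and NRARP encodes a small ankyrin-repeat protein that binds the nuclear complex and damps the signal. In the mammary gland, Notch signalling takes part in the choice between basal and luminal fates.

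RefSeq promoter windows (GRCh38.p14) were matched for 7 of the 9 genes, all but DLL1 and HEY1. The 250 bases before the start site are printed for HES1 (chr3:194135898-194136147, plus strand) and NRARP (chr9:137302272-137302521, minus strand), the targets whose RNA changed most. Capitals mark TGGGAA, the core letters of an RBPJ site.
HES1: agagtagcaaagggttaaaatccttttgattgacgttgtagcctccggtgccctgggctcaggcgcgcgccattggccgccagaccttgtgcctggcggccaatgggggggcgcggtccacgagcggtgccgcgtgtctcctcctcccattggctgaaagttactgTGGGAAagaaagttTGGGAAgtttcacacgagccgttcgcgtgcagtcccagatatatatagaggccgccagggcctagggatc
NRARP: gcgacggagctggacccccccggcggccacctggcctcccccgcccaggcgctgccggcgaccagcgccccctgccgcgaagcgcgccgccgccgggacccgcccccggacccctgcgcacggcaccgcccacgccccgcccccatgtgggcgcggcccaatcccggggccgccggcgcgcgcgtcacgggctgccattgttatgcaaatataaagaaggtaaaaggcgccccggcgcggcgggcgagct
The HES1 window held TGGGAA 2 times, at 84 to 79 and at 70 to 65 bases before the start, in the same orientation. The first of them is part of the longer form GTGGGAA. Of 35116 RefSeq windows of the same length, 20.8% held TGGGAA and 5.43% held GTGGGAA on either strand. The windows of NRARP, NOTCH1, NOTCH2, NOTCH3, JAG1 and JAG2 held neither. The E-box CACGTG, which MYC binds together with MAX, was in none of the 7 windows and in 6.34% of all windows. The N-box CACNAG, bound by HES1 itself, occurred 3 times in the HES1 window and 1 time in that of NOTCH3, and 32.0% of all windows held it. A match or its absence describes the letters of these windows and nothing about binding.

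Library totals ran from 136860029 to 182438505 counts. Levels are given as CPM, counts scaled to each library's TMM-adjusted total. A level of 3 counts was taken as an approximate upper limit for a count of 0 under counting error alone. It was 0.0219 CPM or less in every library, taken on totals before TMM adjustment. All 8 basal epithelial markers (among them KRT5, KRT14 and TP63) were above 1 CPM in every group. Their summed level was 15095 to 15586 CPM in MYC-ER and 24649 to 30679 CPM in parental libraries at 0 h. In MYC-ER it was 16266 to 18083 CPM at 8 h and 11654 to 12387 CPM at 24 and 48 h. Later parental libraries held 19724 to 25590 CPM. Of 10 luminal markers, 6 were above 1 CPM in every group, whereas PGR and KIT had no count in any library. The luminal sum in MYC-ER was 291 to 319 CPM at 0 h and 710 to 745 CPM at 8 h. It was 494 to 567 CPM there at 24 and 48 h, beside 288 to 480 CPM in parental libraries. Of 3 pan-epithelial markers, 2 were above 1 CPM in every group. Of 4 blood markers, the T cell gene CD3E had no count in any library, and 1 was above 1 CPM in every group. These markers summed to 4.20 to 23.6 CPM. Of 4 endothelial markers, CDH5 had no count in any library. Their sum was 0.058 to 2.32 CPM, with 1 above 1 CPM in MYC-ER at 8 h and in parental cells at 0 h and 48 h. Of 6 fibroblast markers, 3 were above 1 CPM in MYC-ER at 24 h and 48 h, and 2 elsewhere. The fibroblast genes COL1A1 and DCN were expressed, and the 6 fibroblast markers summed to 369.6 to 377 CPM in MYC-ER at 0 h and to 77.3 to 133 CPM elsewhere, while PDGFRA held at most 0.0618 CPM and COL3A1 at most 0.0116 CPM in any library. Mitochondrial transcripts took 9.24% to 9.71% of counts in MYC-ER at 0 h and 3.86% to 7.78% in the other libraries. All MYC-ER changes against 0 h below share those 0 h libraries, and the part of these values in the Notch results was not tested. MYC transcripts, which cannot be split into the cell's own gene and the fusion, stood at 387 CPM in MYC-ER at 0 h, 795 CPM at 8 h, 321 CPM at 24 h and 248 CPM at 48 h, and at 463 to 532 CPM as parental group means.

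All 9 genes are annotated as protein-coding, and positions are those of RefSeq on GRCh38.p14. Before 4-OHT, the lines already differed at the receptors and targets. MYC-ER cells at 0 h had 18.6-fold less NOTCH3, 5.28-fold less HES1 and 4.58-fold less NRARP RNA than parental cells, and more NOTCH1 (1.81-fold) and NOTCH2 (1.70-fold). Within 8 h of 4-OHT, HES1, NRARP and NOTCH3 rose and NOTCH1 fell in the MYC-ER line, and at that time point HES1 libraries of the lines overlapped. The largest change against 0 h among the 9 genes in the parental line was the 1.83-fold rise of NOTCH2 at 24 h.

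**Figure D1:**
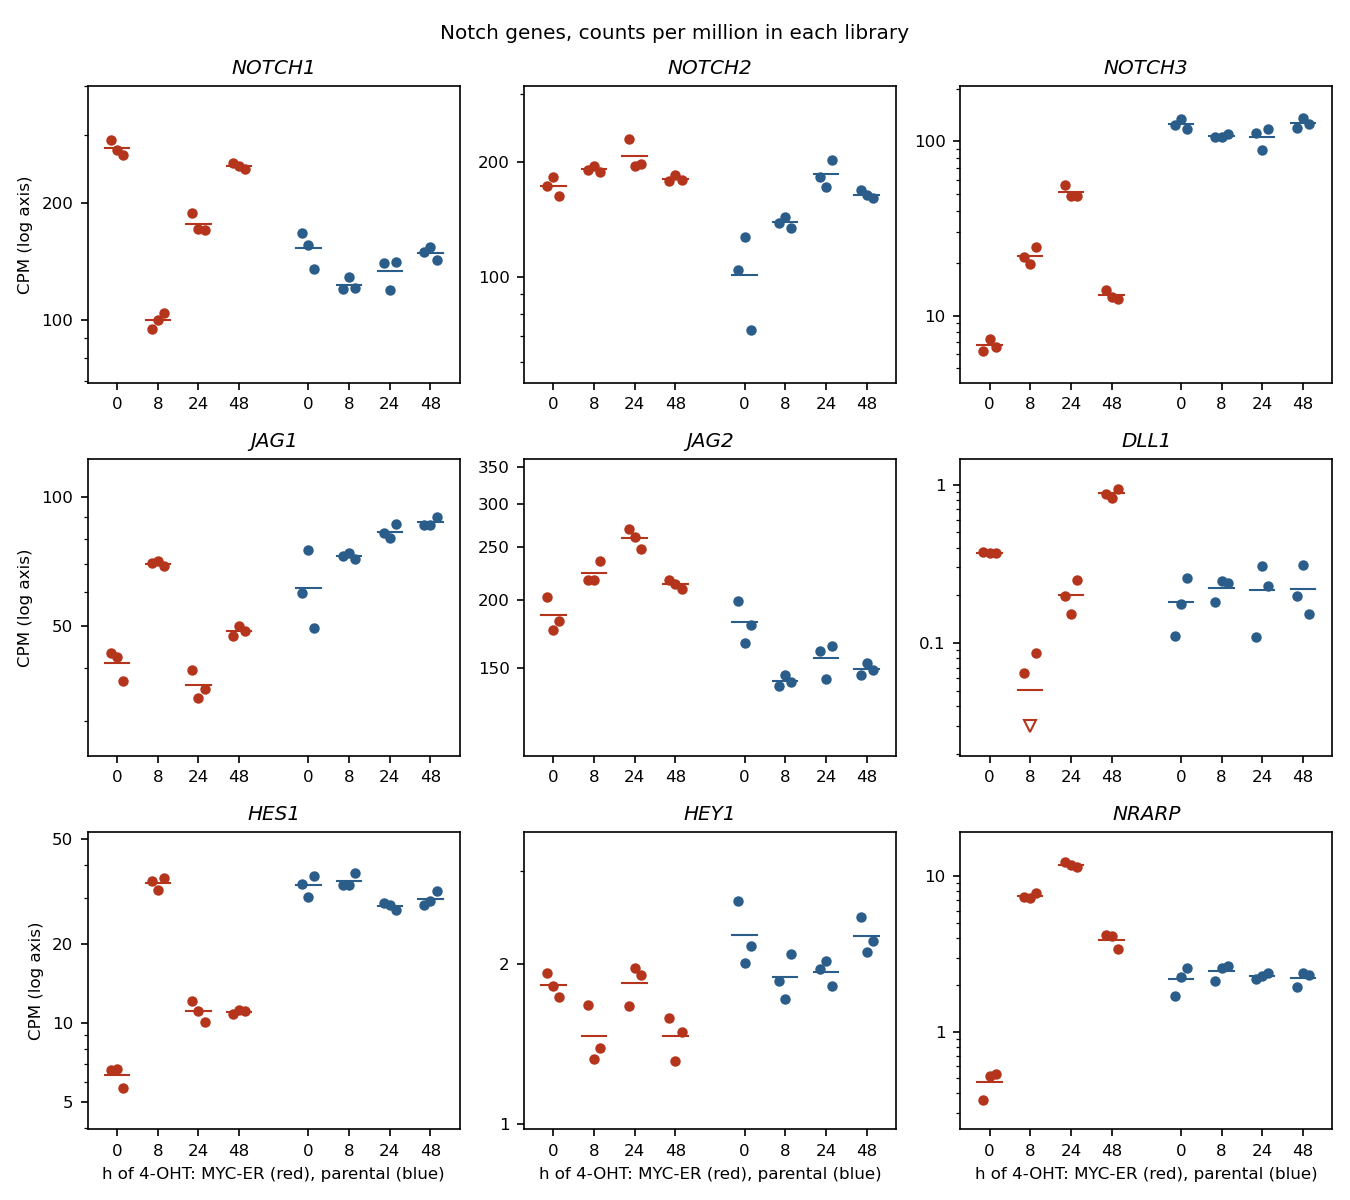
CPM (log axis, a different range in each panel) of the 9 Notch genes in each of the 24 libraries, by hours of 4-OHT, with MYC-ER in red and parental in blue; horizontal lines are means of 3 libraries and the open triangle stands for a library with 0 counts. NOTCH3, HES1 and NRARP lie lowest in MYC-ER at 0 h, and NOTCH1 lies lowest in MYC-ER at 8 h.

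Of the 3 receptors, NOTCH1 (ENSG00000148400.12, chr9:136494433-136546048, minus strand) had its highest level in MYC-ER cells at 0 h, with 292, 274 and 267 CPM in the 3 libraries. At 8 h the values were 95.1, 100.2 and 105 CPM, the lowest of all 8 groups. At 24 h they had come up to 189, 172 and 170.5 CPM. At 48 h they were 254, 249.5 and 244 CPM. The 4 MYC-ER groups did not overlap each other. In edgeR's quasi-likelihood test, with p-values adjusted by the Benjamini-Hochberg method over all genes, NOTCH1 fell 2.77-fold at 8 h (log2 change -1.47 ± 0.07 SE, adjusted p = 8.20e-14) and was 1.57-fold below 0 h at 24 h (-0.65 ± 0.07, adjusted p = 6.65e-08). Between 8 h and 24 h it rose 1.77-fold and between 24 h and 48 h by a further 1.41-fold. The 48 h level missed the threshold against 0 h (-0.15 ± 0.07, adjusted p = 0.0911), but passed in a fit of the 2 groups alone and with each library's trend on transcript GC content (the GC trend) removed. In parental cells NOTCH1 stayed between 119 and 168 CPM in all 12 libraries. The interaction of line and time, the log2 change in MYC-ER minus that in parental cells, was -1.16 ± 0.10 at 8 h (adjusted p = 2.45e-09).

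NOTCH3 (ENSG00000074181.9, chr19:15159038-15200995, minus strand), a receptor of the same family, went the other way in the same libraries. It was at 6.25, 7.37 and 6.62 CPM in MYC-ER cells at 0 h. It reached 21.6, 19.6 and 24.7 CPM at 8 h and 56.3, 48.8 and 48.4 CPM at 24 h. At 48 h it was back at 14.1, 12.8 and 12.5 CPM, still above every 0 h library. The rises against 0 h were 3.26-fold at 8 h (log2 change 1.70 ± 0.10 SE, adjusted p = 2.01e-12), 7.58-fold at 24 h (2.92 ± 0.11, adjusted p = 3.74e-16) and 1.95-fold at 48 h (0.96 ± 0.10, adjusted p = 7.95e-08). The fall from 24 h to 48 h was 3.90-fold. All 12 parental libraries held between 88.6 and 137 CPM, so that the highest MYC-ER group, at 24 h, stayed below the lowest parental library. The difference between the lines narrowed from 18.6-fold at 0 h to 4.89-fold at 8 h and 2.07-fold at 24 h, and was 9.72-fold at 48 h. In order of level, the 4 parental groups came first, then MYC-ER at 24, 8, 48 and 0 h, and no 2 neighbours among the MYC-ER groups overlapped.

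NOTCH2 (ENSG00000134250.20, chr1:119911553-120069662, minus strand), the third receptor measured, did not pass the test against 0 h in MYC-ER cells at any time. Its 12 MYC-ER libraries ran from 162 to 229 CPM, and neither the 8 h change (log2 0.15 ± 0.12, adjusted p = 0.272) nor the 24 h change (0.26 ± 0.12, adjusted p = 0.0601) passed the threshold. The 8 h change did pass in a fit of the 2 groups alone. The 24 h change passed under 5 of the 10 alternative settings that keep all libraries, among them DESeq2 and a fit of the 2 groups alone. It also passed without parental 0 h replicate 2 or 3. In parental cells it rose from 104, 127 and 72.8 CPM at 0 h to 139, 143 and 134 CPM at 8 h. It then stood at 182, 172 and 202 CPM at 24 h and at 168, 163 and 160.3 CPM at 48 h. These are changes of 1.37-, 1.83- and 1.62-fold (adjusted p = 0.00668, 1.12e-05 and 0.000119), and every later parental library was above every 0 h library. Parental 0 h replicate 3 was the lowest of all 24 libraries, and without it the 8 h change was 0.27 instead of 0.45 on the log2 scale and kept its call. The 8 h call was lost in a fit of the 2 groups alone. NOTCH2 is reported as uncertain, because human-specific partial copies share nearly all of its first exons: the rows of NOTCH2NLA, NOTCH2NLB, NOTCH2NLC and NOTCH2NLR held 0.455 to 13.5 CPM as group means, and how reads that match several genes were counted is not given in the sources used here.

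Divided by the length of each gene's longest GENCODE transcript, the receptors can be compared with each other. NOTCH1 made up 65.2% ± 1.4 (SD, n = 3) of the length-scaled receptor RNA in MYC-ER cells at 0 h, NOTCH2 33.1% ± 1.3 and NOTCH3 1.71% ± 0.16. At 8 h the order of the first 2 was turned, with NOTCH2 at 55.9% ± 1.6 and NOTCH1 at 35.7% ± 0.98. NOTCH3 reached its largest MYC-ER share, 13.7% ± 0.14, at 24 h. By 48 h NOTCH1 was back at 60.7% ± 0.59. In parental cells at 0 h the shares were 41.4% ± 2.5 for NOTCH1, 36.5% ± 2.6 for NOTCH3 and 22.1% ± 3.6 for NOTCH2, and the NOTCH3 share was 28.4% to 36.5% over the 4 groups. The 3 receptors together came to 45.7 ± 1.8 CPM per kb in the MYC-ER line before 4-OHT, 30.1 ± 0.60 after 8 h and 43.1 ± 3.3 after 24 h. No test was run on the shares. Which transcripts each gene used was not measured, so the lengths are approximate. NOTCH2 was divided by 11389 bases, while its merged exons span 16074. For NOTCH1 and NOTCH3 both lengths were the same. Shares of NOTCH2 also carry the uncertainty from its partial copies.

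**Figure D2:**
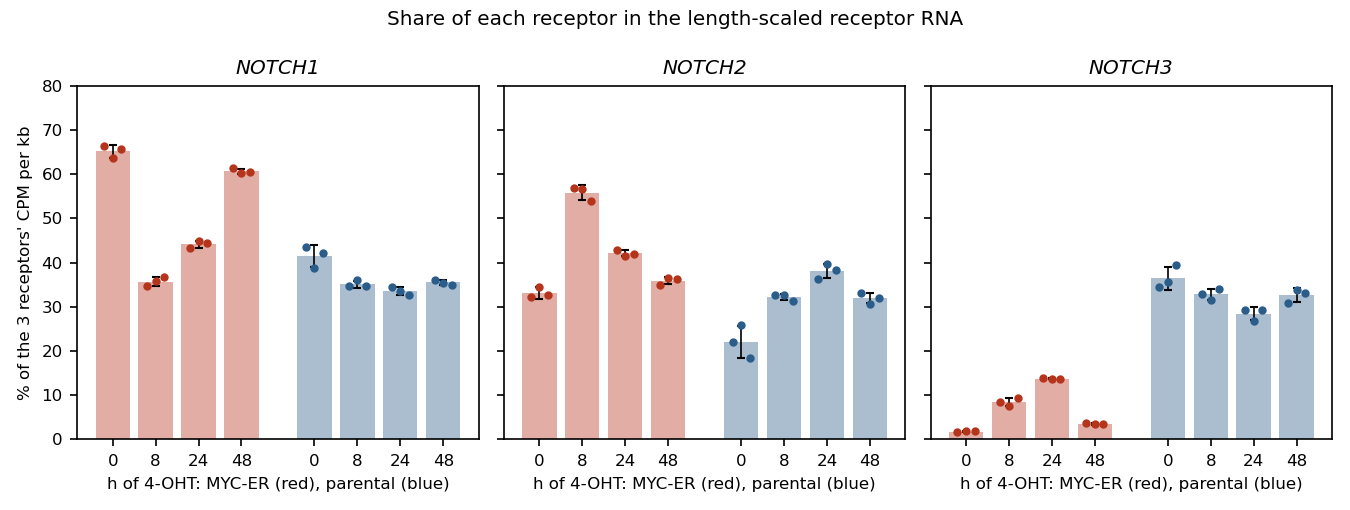
Share of each receptor in the summed CPM per kb of NOTCH1, NOTCH2 and NOTCH3 (percent, axis from 0), by hours of 4-OHT in MYC-ER (red) and parental (blue) cells; bars are means, error bars SD and points the 3 libraries. NOTCH2 holds the largest share in MYC-ER cells at 8 h (55.9%), and NOTCH1 holds it at 0, 24 and 48 h. The NOTCH2 level and length are uncertain.

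Among the ligands, JAG2 (ENSG00000184916.9, chr14:105140995-105168776, minus strand) was the most abundant per length, with 82.0% ± 1.3 of the ligand RNA before 4-OHT in the MYC-ER line, 87.8% ± 0.68 after 24 h there, and 63.3% to 74.96% as parental group means. Its MYC-ER levels were 203, 176 and 183 CPM at 0 h. They were 218, 217 and 236 CPM at 8 h and 269.6, 260.3 and 247 CPM at 24 h. At 48 h they were 217, 214 and 209.6 CPM. Each later MYC-ER library was above all 3 libraries of 0 h. The rises were small: 1.19-fold at 8 h (adjusted p = 0.00148), 1.38-fold at 24 h (adjusted p = 1.68e-06) and 1.14-fold at 48 h (adjusted p = 0.0210). With upper-quartile scaling, the 8 h change was 0.12 on the log2 scale and missed the threshold. The 48 h call was lost without MYC-ER 0 h replicate 2 or 3 or without MYC-ER 48 h replicate 1 or 2. In parental cells JAG2 fell instead, from 199, 167 and 179.8 CPM at 0 h to 139, 145 and 141 CPM at 8 h, 1.28-fold (adjusted p = 0.000336). With the GC trend removed, that fall was -0.07 instead of -0.36 on the log2 scale and was not called.

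JAG1 (ENSG00000101384.12, chr20:10637684-10673999, minus strand), the other Jagged ligand, gave a short pulse in MYC-ER cells. Its level went from 43.4, 42.5 and 37.3 CPM at 0 h to 70.1, 71.0 and 69.1 CPM at 8 h. At 24 h it was 39.5, 34.0 and 35.7 CPM, overlapping the 0 h libraries. At 48 h it was 47.4, 50.1 and 48.8 CPM. The 8 h rise was 1.71-fold (log2 change 0.77 ± 0.09 SE, adjusted p = 2.60e-07), and the fall from 8 h to 24 h was 1.93-fold. The 24 h level did not pass against 0 h (-0.17 ± 0.09, adjusted p = 0.118), but did with upper-quartile scaling and without parental 0 h replicate 2 or 3. The 1.19-fold difference at 48 h (adjusted p = 0.0383) was lost with the GC trend removed, with no filter, without MYC-ER 0 h replicate 2 or 3, and without any 1 of the MYC-ER 48 h libraries. Parental cells went from 59.7, 75.15 and 49.6 CPM at 0 h to 86.2, 86.4 and 89.9 CPM at 48 h, a 1.42-fold rise (adjusted p = 0.000212). The difference between the lines at 24 h was 2.29-fold, lower in MYC-ER (adjusted p = 8.68e-10).

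DLL1 (ENSG00000198719.9, chr6:170282206-170291078, minus strand), a Delta-like ligand, was low everywhere, and its changes rest on few counts. MYC-ER libraries held 65, 65 and 63 counts at 0 h. They held 9, 0 and 13 counts at 8 h. For the library with none, the limit from counting error alone was 0.0200 CPM on its unadjusted total. They held 34, 24 and 39 counts at 24 h and 152, 125 and 157 counts at 48 h. The 12 parental libraries had 18 to 49 counts. At no more than 0.936 CPM, DLL1 made up at most 0.664% of the ligand RNA per length in any library. The 8 h fall was 7.19-fold (log2 change -2.85 ± 0.55 SE, adjusted p = 9.67e-05), and the log2 change was -3.49 without MYC-ER 8 h replicate 3 and -2.27 without MYC-ER 8 h replicate 2, still called. The 24 h level did not pass (-0.89 ± 0.48, adjusted p = 0.112), except in a fit of the 2 groups alone or without MYC-ER 8 h replicate 2. The 2.37-fold rise at 48 h (adjusted p = 0.0331) was lost with no filter and without any 1 of the 6 libraries of MYC-ER 0 h and 48 h, although the 2 groups did not overlap.

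Of the 3 target genes, HES1 and NRARP rose at all 3 times in MYC-ER cells. HES1 (ENSG00000114315.4, chr3:194136148-194138732, plus strand), the best-known Notch target, was at 6.66, 6.67 and 5.65 CPM in MYC-ER cells at 0 h. It reached 34.7, 32.1 and 35.8 CPM at 8 h. It then held 12.1, 11.2 and 10.1 CPM at 24 h and 10.8, 11.2 and 11.1 CPM at 48 h. The 8 h libraries stood well above the other MYC-ER groups, and the 24 h and 48 h groups overlapped. The rises against 0 h were 5.40-fold at 8 h (log2 change 2.43 ± 0.08 SE, adjusted p = 1.53e-16), 1.76-fold at 24 h (0.82 ± 0.08, adjusted p = 1.11e-08) and 1.75-fold at 48 h (0.80 ± 0.08, adjusted p = 3.68e-08). From 8 h to 24 h HES1 fell 3.07-fold. The 12 parental libraries held 27.0 to 37.2 CPM, the range in which the MYC-ER libraries lay at 8 h. The lines differed 5.28-fold at 0 h, 2.51-fold at 24 h and 2.68-fold at 48 h, always lower in MYC-ER, while at 8 h their libraries overlapped (adjusted p = 0.828). The promoter of HES1, printed above, is the only one of the 7 windows that held the RBPJ core letters. Of all windows 20.8% held them, and that of NRARP, which rose more, did not. Whether they bear on the change of HES1 was not tested.

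NRARP (ENSG00000198435.4, chr9:137299631-137302271, minus strand), the inhibitor that Notch signalling induces, had the largest fold change of the 9 genes against 0 h at each of the 3 times in MYC-ER cells. It was at 0.365, 0.522 and 0.537 CPM at 0 h, from 63 to 92 counts. It was at 7.38, 7.27 and 7.81 CPM at 8 h and at 12.4, 11.9 and 11.4 CPM at 24 h. At 48 h it was at 4.20, 4.15 and 3.403 CPM. No 2 of these groups overlapped. The rises were 15.7-fold at 8 h (log2 change 3.98 ± 0.16 SE, adjusted p = 3.56e-15), 25.0-fold at 24 h (4.65 ± 0.17, adjusted p = 4.16e-16) and 8.24-fold at 48 h (3.04 ± 0.16, adjusted p = 9.35e-13). Unlike HES1, it rose again from 8 h to 24 h, by 1.59-fold (adjusted p = 0.000356). The 12 parental libraries held 1.70 to 2.66 CPM. MYC-ER cells were 4.58-fold below parental cells at 0 h, and 3.06-, 5.21- and 1.77-fold above them at 8, 24 and 48 h.

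HEY1 (ENSG00000164683.17, on chromosome 8) stayed between 1.31 and 2.63 CPM in all 24 libraries, from 187 to 448 counts. Its 8 h change in MYC-ER cells was 1.25-fold, lower (log2 change -0.32 ± 0.13 SE, adjusted p = 0.0355), and the 48 h change was of like size and just missed the threshold (-0.32 ± 0.13, adjusted p = 0.0505), which it passed under 4 of the 10 settings that keep all libraries and in 5 of the 24 fits without 1 library. The 8 h call was lost under 6 of the 10 settings that keep all libraries and without MYC-ER 0 h replicate 1 or 2 or MYC-ER 8 h replicate 2 or 3. The 1.24-fold lower level in MYC-ER against parental cells at 0 h (adjusted p = 0.0408) was lost in 5 of the 24 fits without 1 library and under 4 of the 10 settings that keep all libraries, and was -0.19 instead of -0.31 on the log2 scale without parental 0 h replicate 1. By contrast, the 1.54-fold lower level in MYC-ER against parental cells at 48 h (adjusted p = 0.000301) held under all 34 alternatives.

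**Figure D3:**
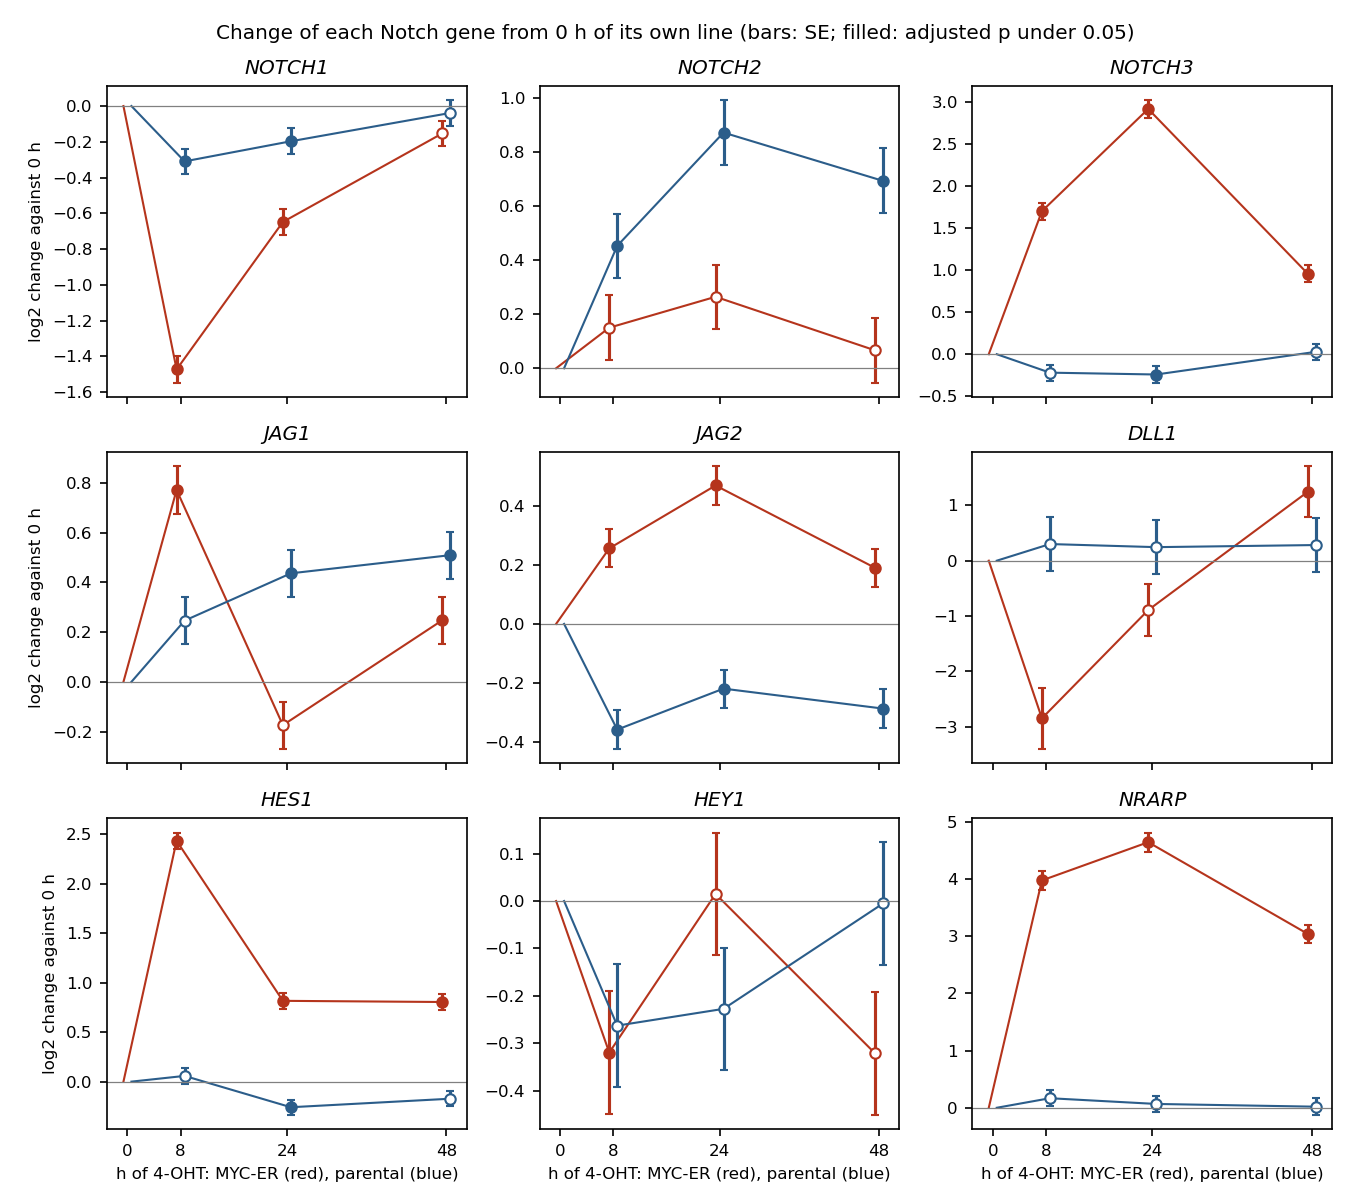
Log2 change of each Notch gene against 0 h of its own line, by hours of 4-OHT, in MYC-ER (red) and parental (blue) cells; error bars are standard errors, filled circles have an adjusted p under 0.05, and each panel has its own vertical range. HES1 and JAG1 peak at 8 h in MYC-ER cells, NRARP and NOTCH3 at 24 h, and NOTCH1 has its lowest point at 8 h (-1.47).

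Counted over the 9 genes, 8 passed at 8 h in MYC-ER cells, 5 of them higher and 3 lower, against 67.6% of all genes tested (32.2% higher, 35.4% lower). At 24 h, 5 passed (4 higher, 1 lower) against 61.6% (30.4% higher, 31.2% lower), and at 48 h, 6 passed (all higher) against 44.1% (23.4% higher, 20.7% lower). Scaling by library size alone moved the share of 48 h calls over the whole table that were higher from 53.0% to 73.8%. The median log2 change of the Notch genes came to 0.26, 0.26 and 0.25 at the 3 times, beside medians of -0.10, -0.02 and 0.03 over all genes tested. The 48 h count rests on single libraries: it was 3 without MYC-ER 0 h replicate 2, without MYC-ER 0 h replicate 3 or without MYC-ER 48 h replicate 2. Between the 8 h and 24 h groups, 8 passed against 55.5% of all genes, and between 24 h and 48 h, 7 passed against 53.7%. These counts stand beside large shares over the whole table and are not read as a result about the Notch genes as a group.

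In parental cells, 3 of the 9 genes passed at 8 h against 31.0% of all genes, 6 at 24 h against 42.9% and 3 at 48 h against 40.5%. Among the calls of this fit, NOTCH2 rose at each time and JAG1 at 24 h and 48 h, and JAG2 fell at each time. NOTCH1 was 1.24-fold lower at 8 h (adjusted p = 0.00264) and 1.15-fold lower at 24 h, a call with adjusted p = 0.0310. At 24 h alone, lower levels were called for NOTCH3 (1.18-fold lower, adjusted p = 0.0462) and HES1 (1.20-fold lower, adjusted p = 0.0102). Across the 9784 more abundant genes (mean CPM 10 or above), parental changes went with transcript GC content (Spearman rho -0.62, -0.66 and -0.65 at 8, 24 and 48 h, a description over genes, which are not independent), whereas MYC-ER changes had rho of 0.02, -0.06 and 0.03. The longest transcripts of NOTCH2, JAG1 and HES1 had 49.4%, 49.6% and 49.9% GC, and those of NOTCH1, NOTCH3, JAG2 and NRARP 62.9% to 67.3%. With the GC trend of each library removed, NOTCH2 and JAG1 kept their parental rises (0.90 and 0.47 on the log2 scale at 24 h). The fall of NOTCH1 at 8 h shrank to -0.05, as that of JAG2 did, and NOTCH1, NOTCH3 and JAG2 at 24 h came out at 0.17, 0.12 and 0.18 instead of -0.20, -0.24 and -0.22. JAG2 at 48 h came out at 0.058 instead of -0.29. In that fit further parental rises were called, for NRARP at all 3 times (0.49, 0.53 and 0.42, adjusted p = 0.0295, 0.0118 and 0.0474), for NOTCH1 and NOTCH3 at 48 h (0.27 and 0.34) and for JAG2 at 24 h. Parental changes also went with transcript length (rho 0.39, 0.55 and 0.60 at 8, 24 and 48 h), and NOTCH2 has the longest transcript of the 9 genes (11389 bases). No fit removed the length trend, and its part in the rise of NOTCH2 was not tested. The 24 h count of 6 fell to 3 without parental 0 h replicate 1 or without parental 24 h replicate 2, and to 1 in a fit of the 2 groups alone. The 24 h call of NOTCH3 was also lost in 14 of the 24 fits without 1 library (-0.13 without parental 24 h replicate 2), that of NOTCH1 in 4 (-0.13 without parental 0 h replicate 1, -0.12 without parental 24 h replicate 2), and that of HES1 without parental 0 h replicate 3.

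At 0 h, 7 of the 9 genes differed between the lines (2 higher and 5 lower in MYC-ER), against 64.3% of all genes (31.6% higher, 32.7% lower). At 8 h, 7 differed against 48.6%, at 24 h, 6 against 49.4%, and at 48 h, 8 against 56.7%. NOTCH3 was the gene with the widest gap at 0 h (log2 difference -4.21 ± 0.11 SE, adjusted p = 1.91e-18), followed by HES1 (-2.40 ± 0.08, adjusted p = 2.20e-16) and NRARP (-2.20 ± 0.16, adjusted p = 5.68e-11). JAG1 was lower in MYC-ER (-0.58 ± 0.09, adjusted p = 1.36e-05), and JAG2, with 187 and 182 CPM as group means, overlapped between the lines. DLL1 did not pass (1.03 ± 0.48, adjusted p = 0.0653), except under 4 of the 9 settings that keep all libraries and could be run for it, and without MYC-ER 8 h replicate 2 or parental 0 h replicate 3, although its MYC-ER libraries were all above the parental ones. NOTCH1 changed sides, being 1.81-fold higher in MYC-ER at 0 h, 1.24-fold lower at 8 h (adjusted p = 0.00121) and 1.67-fold higher at 48 h. JAG2, which overlapped at 0 h, was 1.58-, 1.66- and 1.43-fold higher in MYC-ER at 8, 24 and 48 h. With the GC trend removed, JAG2 was already higher in MYC-ER at 0 h (0.30 ± 0.05 beside 0.04 on the log2 scale, adjusted p = 3.32e-05), and all 9 genes differed between the lines at that time.

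**Figure D4:**
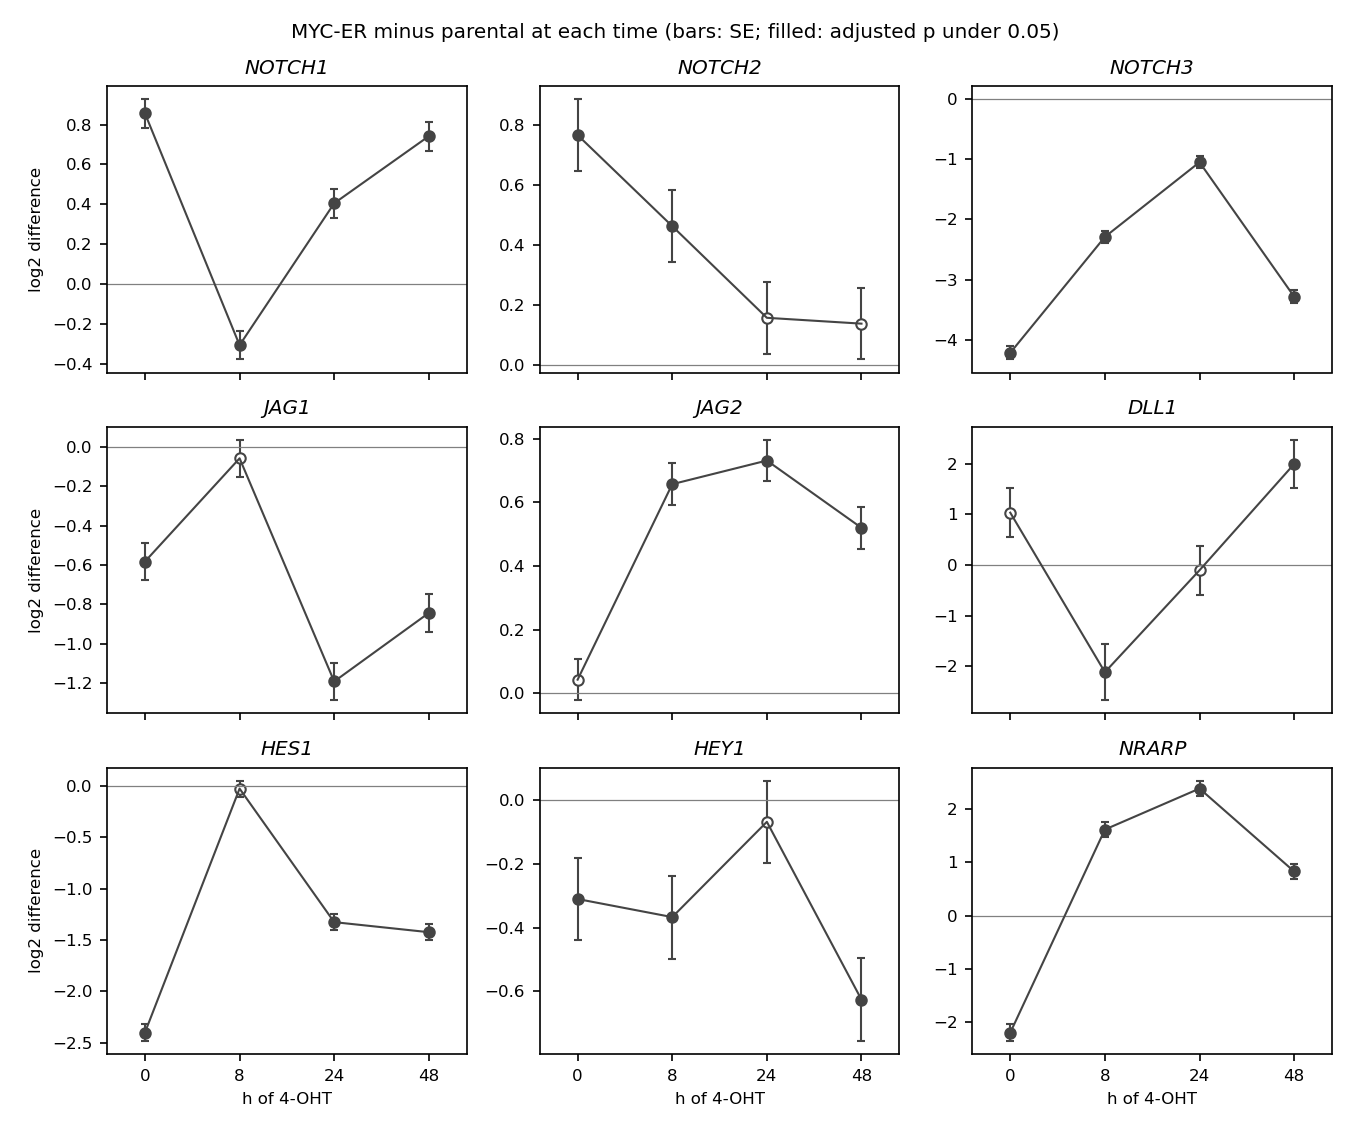
Log2 difference of MYC-ER minus parental cells for each Notch gene after 0, 8, 24 and 48 h of 4-OHT (times evenly spaced); error bars are standard errors, filled circles have an adjusted p under 0.05, and each panel has its own vertical range. HES1 meets the zero line at 8 h alone, NRARP crosses from below to above it, and NOTCH3 stays below it at all 4 times.

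The change of each gene in MYC-ER cells was also set against its change in parental cells in 1 model. This interaction passed for 7 of the 9 genes at 8 h (against 55.2% of all genes), for 7 at 24 h (54.5%) and for 5 at 48 h (45.0%). HES1, NRARP, NOTCH3 and JAG2 had a higher change in MYC-ER at all 3 times, with 2.38 ± 0.11, 3.81 ± 0.21, 1.92 ± 0.14 and 0.61 ± 0.09 on the log2 scale at 8 h. The JAG2 interaction at 48 h (0.48 ± 0.09, adjusted p = 0.000220) was 0.08 with the GC trend removed and was then not called. In the same fit, JAG2 at 24 h was 0.39 instead of 0.69 and NOTCH3 at 48 h was 0.56 instead of 0.93, both still called. Interactions of NOTCH1 (-0.49, adjusted p = 0.00191) and JAG1 (-0.36, adjusted p = 0.0415) at 48 h were called there in addition. JAG1 changed sign within the course, from 0.53 ± 0.13 at 8 h (adjusted p = 0.00197) to -0.61 ± 0.13 by 24 h, where the adjusted p was 0.000526. The NOTCH2 interaction was negative at 24 h and 48 h (-0.61 ± 0.17 and -0.63 ± 0.17), the gene having risen in the parental line.

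Other genes of the pathway came from 5 lists with 69 genes in all, 63 of them tested. The lists were written with earlier results of these data known. Their counts and medians are therefore descriptions and are not read as results about the lists as groups. Of 10 HES and HEY relatives of the targets, 6 were tested, and 6, 6 and 5 of them passed at 8, 24 and 48 h, all higher, against 32.2%, 30.4% and 23.4% of all genes that passed as higher. Their median log2 change at 8 h was 1.76, beside -0.10 over all genes tested, and no alternative called a member lower at any of the 3 times. HES7, known as an oscillating repressor of the embryonic segmentation clock, went from 0.375 CPM at 0 h to 7.86, 11.7 and 4.696 CPM at 8, 24 and 48 h. BHLHE40, a stress- and clock-related repressor, went from 25.3 to 228 CPM at 8 h, with libraries of 24.3 to 26.6 and 204 to 251 CPM, and stood at 66.5 CPM at 24 h. In parental cells BHLHE40 also rose, 1.78-fold at 8 h, from 108 to 192 CPM. HES6 reached 6.10 CPM at 8 h from 1.53 CPM, HES4 reached 17.2 CPM at 8 h and 16.2 CPM at 24 h from 5.97 CPM, and BHLHE41 reached 18.3 CPM at 48 h from 4.35 CPM. Before 4-OHT, HES7, HES6, HES2 and BHLHE40 had lower levels in the MYC-ER line than in the parental one (5.01-, 3.83-, 2.16- and 4.27-fold), as HES1 did. BHLHE41 was 1.74-fold higher in the MYC-ER line at 0 h (adjusted p = 4.57e-06), and HES4 was not called, at 5.97 and 7.28 CPM. Against parental cells at the same time, HES7, HES4 and BHLHE41 were higher in MYC-ER at 8, 24 and 48 h. HES6 was not called at 8 h or 24 h and was 1.80-fold lower at 48 h. BHLHE40 was 1.19-fold higher at 8 h and 2.68- and 2.22-fold lower at 24 and 48 h. HES2 was 1.35- and 1.11-fold lower at 8 and 24 h and was not called at 48 h. In parental cells, 3, 3 and 5 of the 6 relatives passed at 8, 24 and 48 h, against 31.0%, 42.9% and 40.5% of all genes. Of these, 1 was higher at each time, and 2, 2 and 4 were lower, HES7 and HES2 at all 3 times. Over the alternatives, the parental calls ran from 1 to 4, 2 to 4 and 1 to 6. HES3, HES5, HEY2 and HEYL did not pass the filter and held at most 0.0432 CPM as group means.

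**Figure D5:**
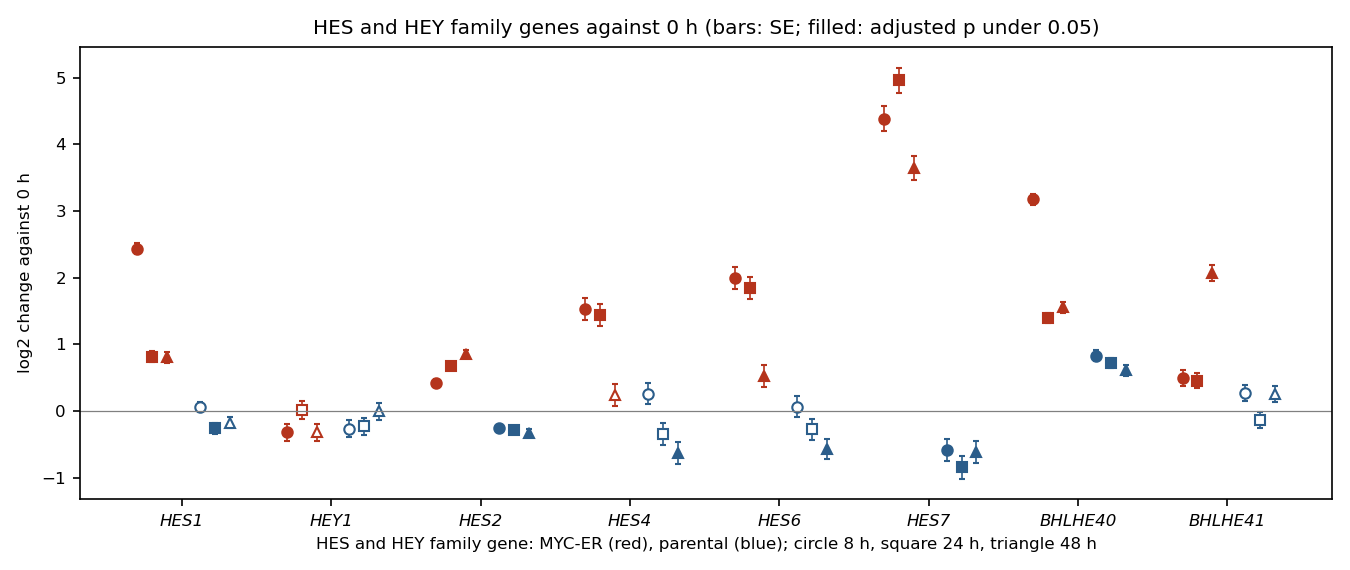
Log2 change against 0 h of HES1, HEY1 and the 6 tested relatives in MYC-ER (red) and parental (blue) cells at 8 h (circles), 24 h (squares) and 48 h (triangles); error bars are standard errors and filled symbols have an adjusted p under 0.05. In MYC-ER cells HES7 has the largest changes, HEY1 stays near 0, and BHLHE40 is the relative that is also higher in parental cells at all 3 times.

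Of the 20 genes of the nuclear complex and its corepressors, 4 were higher and 11 lower in MYC-ER cells at 8 h (32.2% and 35.4% of all genes tested), with a median log2 change of -0.32. The acetyltransferase KAT2B fell from 22.8 to 8.47 CPM and the coactivator MAML2 from 21.3 to 8.32 CPM. At 24 h KAT2B was at 6.48 CPM, and the Groucho-type corepressors TLE1 and TLE3 were 2.09- and 2.05-fold lower. MAML3, another coactivator, was 2.19-fold higher at 48 h. RBPJ, the DNA-binding partner of all Notch receptors, held 71.5, 79.4, 80.1 and 59.6 CPM at 0, 8, 24 and 48 h and did not pass at any of the 3 times. In parental cells it rose 1.31-, 1.61- and 1.64-fold at 8, 24 and 48 h. Parental changes went with GC content and transcript length, as given above, and the part of these trends in the RBPJ rise is not given here. Calls of this list in parental cells at 8 h ran from 1 to 17 over the alternatives, beside 10 in the main fit.

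Of the 18 genes for receptor maturation, ligand activation and cleavage, 6 were higher and 7 lower at 8 h, against 67.6% of all genes called (32.2% higher, 35.4% lower). The gamma-secretase subunit APH1B fell 5.10-fold, to 2.01 CPM, the ubiquitin ligase MIB2, which activates ligands, 2.83-fold, and the glycosyltransferase LFNG, which tunes ligand choice, 2.65-fold. NEURL1B, also a ligand-activating ubiquitin ligase, went from 3.36 CPM at 0 h to 0.325 CPM at 8 h and then to 21.6 and 20.9 CPM at 24 and 48 h.

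Of the 12 tested genes for receptor trafficking and turnover, 5 were higher and 6 lower at 8 h, beside the same 67.6% of all genes (32.2% higher, 35.4% lower). The endocytic adaptors NUMBL and NUMB, which oppose Notch, rose 2.89- and 2.15-fold at 8 h, from 17.5 to 50.4 CPM and from 56.3 to 121 CPM. NUMB was back at 59.7 CPM at 24 h. The ubiquitin ligases DTX3, DTX4 and NEDD4 fell 4.91-, 2.52- and 2.46-fold. Among the 7 other receptors and ligands tested, DNER, a non-canonical ligand, fell from 262 CPM at 0 h to 143 and 72.1 CPM at 8 and 24 h and stood at 141 CPM at 48 h. NOTCH4 was at most 0.347 CPM as a group mean apart from MYC-ER at 48 h, where its libraries held 2.01 to 2.19 CPM. RBPJ, NOTCH4 and HES2 are named outside the rule for naming genes and were chosen after their values were seen. The untested HES3, HES5, HEY2 and HEYL and the NOTCH2NL copies are also named outside it.

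The genes with the most similar courses were found by the root mean square (RMS) difference of group-mean log2 CPM, each gene centred on its own mean over the 8 groups, among 10768 genes with at least 10 CPM in some group. NOTCH1 had FANCE as its nearest gene, at an RMS difference of 0.044, followed by XPC at 0.067. HES1 had PDLIM7, S100A11 and CARD10, at 0.146 to 0.175. NRARP had DPYSL3 and SPATA13, at 0.248 and 0.250. NOTCH3 had GRHL3, KRT14 and TCF19, at 0.430, 0.444 and 0.529. A gene that varies more over the groups can lie farther from its nearest gene, and the standard deviation of the course itself was 1.55 for NOTCH3, 1.11 for DLL1 and 0.22 for HEY1. The nearest genes to JAG1, JAG2, NOTCH2, DLL1 and HEY1 were TEP1, GIT1, SGTB, RBMS3 and ZNF552, at 0.094, 0.059, 0.078, 0.339 and 0.083. These distances describe 8 groups that share their libraries and carry no test.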

How the data were processed

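RNA-seq counts per gene were used from 24 libraries in 8 groups of 3. The deposited table holds whole-number counts for 60668 Ensembl genes, not normalised. The submitters' processing notes name Trimmomatic 0.39, STAR, StringTie 2.1.3b and GRCh38, without their roles. How the authors made the deposited counts, the annotation release, the use of strand and the treatment of reads that match several genes are not given in the sources used here. If the counts were derived from StringTie coverage, they are estimates, and floors of 3 counts, which cover counting error alone, are approximate.

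Symbols were matched for 60295 rows. The filter was edgeR's filterByExpr, which kept 22158 genes. TMM factors and a model of 8 group means on the 24 libraries came from edgeR 4.0.16 under R 4.3.3. The 15 contrasts were tested with the two-sided quasi-likelihood F test, with Benjamini-Hochberg adjustment over all genes and a threshold of 0.05. The standard error is the log2 change divided by the square root of F. The code of the fit was run on simulated counts, with known changes in few genes and no GC trend. These data differ in both, so that run gives no error rate for them. Replicates of a group were compared by chi-square per degree of freedom (8.45 to 261 over 24 pairs), and none agreed within sampling noise. CPM are relative to TMM-adjusted totals. A prior count of 2 was added for log2 CPM.

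Pathway genes were named where they passed the threshold in a MYC-ER contrast against 0 h with a log2 change of at least 1 in size and at least 5 CPM in the higher group, up to 3 per direction, list and contrast. Some genes that met this rule are not reported here. The Notch genes and all lists were chosen with earlier results of these data known. Gene positions and promoters come from RefSeq (GRCh38.p14), transcript length and GC content from GENCODE on GRCh38. No other gene shared exons with the 9 genes at more than 0.0403 CPM, apart from the NOTCH2NL copies, which lie elsewhere. The alternatives were scaling by upper quartile, by DESeq2 size factors or by library size alone, no filter, at least 10 counts in every library, the DESeq2 1.42.0 Wald test, only the groups compared, a replicate block, removal of each library's lowess trend on GC content (span 0.3, GC known for 98.0% of genes tested), both together, and each library left out.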

Additional observations from a re-analysis of the deposited data

Results flagged for a closer look

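The change against 0 h differed between MYC-ER and parental cells for 19 combinations of gene and time, by the interaction of line and time in edgeR's quasi-likelihood test with Benjamini-Hochberg adjustment over all genes. Values are the log2 change in MYC-ER minus that in parental cells. NRARP had 3.81, 4.58 and 3.02 at 8, 24 and 48 h, HES1 2.38, 1.08 and 0.98, NOTCH3 1.92, 3.16 and 0.93, and JAG2 0.61, 0.69 and 0.48. NOTCH1 had -1.16 at 8 h and -0.45 at 24 h. NOTCH2 had -0.61 at 24 h and -0.63 at 48 h. JAG1 had 0.53 at 8 h and -0.61 at 24 h, and DLL1 had -3.15 at 8 h, where the libraries compared held between 0 and 65 counts. No group of 3 libraries was tested for an outlying one.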

How the results depend on the processing

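Of 100 changes of the 9 genes that were computed, 74 kept their direction and their side of the threshold under every alternative run for them, which were 34, or 33 for DLL1, since the minimum of 10 counts in every library removes it. Those of HES1, NRARP and NOTCH3 in MYC-ER cells, between the lines where called, and in the interaction were among them. The count of Notch genes that passed in MYC-ER cells at 48 h ran from 3 to 7 with 1 library left out, and that in parental cells at 24 h from 3 to 6. With only the groups compared in the fit, 1 gene passed in parental cells at 8 h and 1 at 24 h, and fewer samples stand behind the estimate of spread there. With the GC trend removed, alone or with the replicate block, 5 passed in parental cells at 48 h. Directions turned with the GC trend removed in parental cells: NOTCH1 came to 0.17 (0.18 with the replicate block), NOTCH3 to 0.12 (0.13) and JAG2 to 0.18 (0.19) at 24 h, and JAG2 to 0.058 (0.059) at 48 h. With library size alone, NOTCH1 in MYC-ER cells at 48 h came to 0.0084, and the median of all genes there moved from 0.03 to 0.19. The cause was not tested. The replicate numbers did not pair the libraries: same-numbered libraries had correlations of -0.078 to 0.094 between groups, and 10 of 24 correlated best with their own number. The replicate block alone ended the call of NOTCH3 in parental cells at 24 h (-0.24, adjusted p = 0.0546 beside 0.0462 without it, range over all alternatives 0.00560 to 0.428) and called HEY1 in MYC-ER cells at 48 h. Over the whole table, parental calls at 8, 24 and 48 h numbered 6870, 9503 and 8978, and 1452, 4923 and 3274 with only the groups compared. Depth limited DLL1, with at most 157 counts, and NRARP at 0 h in MYC-ER cells.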
